A study of Mus musculus with 47 samples.

Results

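Cytosolic ribosomal protein genes (RP genes) encode the proteins of the large and small subunits of the ribosome that translates nuclear messages. They were taken by symbol: names of the form Rpl or Rps with a number and at most 1 letter and 1 digit, Rplp0, Rplp1, Rplp2 and Rpsa, without Rpl10l. This gave 84 genes, 51 of the large and 33 of the small subunit by symbol, of 24507 genes in the tables of unsorted cells and embryoid bodies and of 26182 in the tables of sorted cells. No measured value entered the choice. The symbols also took in Rpl3l, Rpl7l1, Rpl22l1, Rpl39l, Rps27l and Rps4l, which are paralogs of a main gene, and Rpl32l.

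RNA came from E14Tg2A, a single mouse embryonic stem cell (ESC) line, grown in serum-free medium with the MEK inhibitor PD0325901, the GSK3 inhibitor CHIR99021 and LIF. Cells carried an siRNA against Tdg (siTdg) or a control siRNA (siC), so the controls had been transfected too. Tdg encodes thymine DNA glycosylase, an enzyme of base excision repair. The 10 groups of 2 libraries were siTdg and siC ESCs at 48 h, siTdg and siC ESCs at 96 h, siTdg and siC embryoid bodies (EBs) at day 11, and siTdg and siC ESCs sorted into G2M and G1. The labels give a replicate number without saying if a group's 2 libraries are independent cultures. A p-value here therefore covers only the variation between the libraries at hand, which may be technical. Values are RPKM, read counts scaled by gene length and by library, and whole reads recovered from them came to between 20818174 and 41433232 per library.

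Most of these proteins stand in the ribosome in a single copy and are assembled on ribosomal RNA in the nucleolus, so cells make them in step, and their messages are among the most abundant of a growing cell. Most of the messages begin with a C and a run of pyrimidines, the 5' terminal oligopyrimidine (TOP) motif, through which mTORC1 and LARP1 adjust their translation together. Several RP proteins also act on p53: Rpl5 and Rpl11, bound to 5S ribosomal RNA, inhibit the ubiquitin ligase Mdm2 when ribosome assembly is disturbed.

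Pyrimidine runs were looked for around the RefSeq starts of RP genes. RefSeq windows of GRCm38.p6 were at hand for 63 of the 84 genes, 75 windows in all. Below are the 15 bases before and the 15 bases from the start of 10 genes that the results turn on, with capitals marking the longest C or T run that touches the 10 bases around the start. Rps6, the substrate of S6 kinase, and Rplp2, of the ribosomal stalk, show the typical run, as do Rpl14 and Rpl38, 2 of the genes called between phases in the authors' table. Rps25 and Rps28 were called there too and have short runs, and the last 4 are genes with large (Rps24 and Rpl41) or small (Rpl4 and Rps2) differences between EB libraries.
Rps6: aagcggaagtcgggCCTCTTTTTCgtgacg
Rplp2: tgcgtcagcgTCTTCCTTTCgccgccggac
Rpl14: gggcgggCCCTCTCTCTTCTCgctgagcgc
Rpl38: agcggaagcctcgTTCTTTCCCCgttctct
Rps25: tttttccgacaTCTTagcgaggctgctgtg
Rps28: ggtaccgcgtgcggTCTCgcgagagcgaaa
Rps24: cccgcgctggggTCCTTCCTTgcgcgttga
Rpl41: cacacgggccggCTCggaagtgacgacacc
Rpl4: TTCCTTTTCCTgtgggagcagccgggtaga
Rps2: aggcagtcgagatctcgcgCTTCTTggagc
In GRCm38.p6 these windows lie on Rps6 at chr4:86857353-86857382, minus strand, Rplp2 at chr7:141447636-141447665, plus strand, Rpl14 at chr9:120571502-120571531, plus strand, Rpl38 at chr11:114668565-114668594, plus strand, Rps25 at chr9:44407699-44407728, plus strand, Rps28 at chr17:33824548-33824577, minus strand, Rps24 at chr14:24490663-24490692, plus strand, Rpl41 at chr10:128549154-128549183, minus strand, Rpl4 at chr9:64173372-64173401, plus strand, Rps2 at chr17:24720048-24720077, plus strand. A run of at least 6 bases stood in 34 of 75 RP windows (45.3%), against 6631 of 32851 windows of all genes (20.19%), and a run of at least 10 bases in 25.3% of RP windows and 4.96% of all. The median run was 5 bases in RP windows and 3 in all. A run may lie before the start, as in Rpl4, so these shares do not count messages that begin with one. Over the 300 bases from 250 before to 50 after the start, CCGGAAG (both strands), the core bound by ETS factors such as GABPA, stood in 36.0% of RP windows and 8.86% of all. AAGATGGC (both strands), part of the YY1 motif, stood in 10.7% and 2.75%, CACGTG (both strands), the E-box bound by Myc, in 10.7% and 7.15%, and TATAAA (both strands) in 10.7% and 13.62%. These are matches of letters in windows of which some genes have several, and no binding was measured at them here.

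RP genes held a large share of expression in every library. They made up 23.6% and 24.96% of summed RPKM in siTdg ESCs at 48 h, against 23.4% and 23.5% in siC ESCs (replicates 1 and 2 in that order, here and in every pair of values). At 96 h the share was 23.7% and 29.2% in siTdg and 23.8% and 28.5% in siC ESCs. In day 11 EBs it was 17.8% and 39.4% in siTdg and 17.8% and 41.9% in siC. Among sorted cells it was 18.3% and 20.1% in siTdg G2M, 17.8% and 18.6% in siC G2M, 18.1% and 21.8% in siTdg G1 and 17.0% and 18.2% in siC G1. In all 10 groups replicate 2 was the higher library, and the gap between replicate numbers was widest in EBs, where siTdg and siC differed by far less than the 2 libraries of each. A share within a library does not depend on how the libraries were scaled to each other. In bulk RNA, more cells rich in these messages and more message per cell cannot be told apart.

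**Figure D1:**
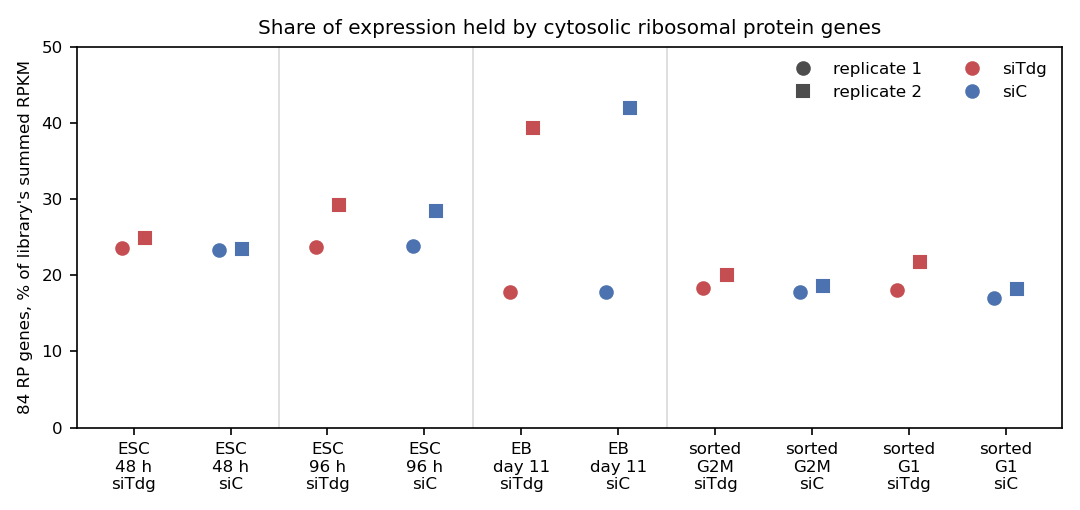
Share of each library's summed RPKM held by the 84 RP genes (vertical axis, percent) in the 10 groups; each point is 1 library, circles replicate 1, squares replicate 2, red siTdg, blue siC. Both replicate 2 libraries of EBs stand near 40%, above the other 18 libraries, and siTdg and siC of one replicate number lie close together.

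Of the 84 genes, 78 had at least 5 RPKM in every library. By the mean over the 20 libraries, Rpl41, which encodes a very short basic peptide, was highest. It had 2306 and 3060 RPKM in siTdg ESCs at 48 h, against 2334 and 2571 RPKM in siC. Its levels in EBs were 1751 and 13363 RPKM in siTdg and 1587 and 19155 RPKM in siC, so its first place rests on the second EB libraries. Rps18 and Rps12 of the small subunit followed. Rps18 had 3445 and 3939 RPKM in siTdg ESCs at 48 h, against 3453 and 3424 RPKM in siC, above Rpl41 in all 4 libraries. RPKM is per length, so levels can be set beside each other between genes within a library, although gene models with unused exons lower a value.

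Of the ribosomal stalk, which recruits elongation factors, all 3 genes were high. In ESCs at 48 h Rplp0 had 2192 and 2282 RPKM in siTdg against 2470 and 2234 RPKM in siC. Rplp1 had 3300 and 3026 RPKM in siTdg against 3685 and 2833 RPKM in siC, and siTdg and siC overlapped for both genes. Rplp2, with 1731 and 1616 RPKM in siTdg against 1650 and 1432 RPKM in siC, overlapped as well.

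Of the 5S particle, Rpl5 had 936 and 1062 RPKM in siTdg ESCs at 48 h against 894 and 995 RPKM in siC. Rpl11 had 1405 and 1610 RPKM in siTdg against 1356 and 1386 RPKM in siC. Rpl5 overlapped between the groups, whereas both siTdg values of Rpl11 lay above both siC values, the lower pair by a narrow margin. Rps6 had 1463 and 1430 RPKM in siTdg against 1449 and 1302 RPKM in siC. For Rps27a, made as a fusion with ubiquitin, the values were 1610 and 1774 RPKM in siTdg against 1522 and 1633 RPKM in siC. Rpsa, also known as the laminin receptor, had 1803 and 1750 RPKM in siTdg against 1910 and 1570 RPKM in siC. These 3 small subunit genes overlapped between siTdg and siC.

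At the low end, 4 genes with a general role in the ribosome were listed near 0. Rpl26 had 0 to 1 reads and at most 0.0773 RPKM in any library, Rpl30 0.272 to 1.45 RPKM, Rpl34 0.368 to 2.41 RPKM and Rps27 0.673 to 6.43 RPKM. Every dividing cell needs these proteins, so the values are those listed, not a statement of expression. RefSeq holds 6 symbols of Rpl26 pseudogenes, 10 of Rpl30, 2 of Rpl34 and 2 of Rps27, and how the counting treated reads that fit several copies is not given in the sources used here. RefSeq pseudogene symbols of this form exist for 64 of the 84 genes, so any member's reads may be shared with a copy, and its part in the levels was not tested. Rpl3l, a paralog of Rpl3 known from heart and skeletal muscle, was at most 1.17 RPKM.

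The paralogs differed from their main genes between ESCs and EBs. Rps4l, a transcribed pseudogene in RefSeq related to Rps4x, had 74.9 and 37.6 RPKM in siTdg EBs and 66.6 and 51.4 in siC EBs. In ESCs at 96 h it had 455 and 907 RPKM in siTdg and 462 and 845 in siC, and every ESC library, sorted ones included, lay above every EB library. Rps4x itself had 1236 and 3081 RPKM in siTdg EBs and 1122 and 3202 in siC EBs, so that its lower replicate lay below and its higher replicate above all ESC libraries. Rpl39l, a paralog of Rpl39 best known from testis, was ordered likewise, with 0.0536 and 0.343 RPKM in siTdg EBs and 0.0260 and 1.60 in siC EBs. Its ESC values were 41.2 and 28.8 RPKM in siTdg and 58.0 and 37.0 in siC at 48 h and 54.1 and 73.6 in siTdg and 61.9 and 81.2 in siC at 96 h. Levels in EB and ESC tables were scaled separately, and these orders are descriptions with no test.

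Rpl22l1, the paralog of Rpl22, took the other direction in part of the EBs: 197 and 2121 RPKM in siTdg EBs and 194 and 2545 in siC EBs. The second EB library of each group was thus far above the first, which lay within the ESC range. Rpl22 had 129 and 470.1 RPKM in siTdg EBs and 115 and 540.0 in siC EBs, so Rpl22l1 exceeded its main gene in all 4. It did so in every ESC library as well, by little in some. In siC ESCs at 48 h Rpl22l1 had 187 and 265 RPKM against 180 and 190 RPKM for Rpl22. Rpl7l1, a relative of Rpl7 that acts in large subunit maturation, had 40.0 and 122 RPKM in siTdg EBs and 37.8 and 118 in siC EBs, against 111 to 198 RPKM in ESCs of 48 h and 96 h.

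**Figure D2:**
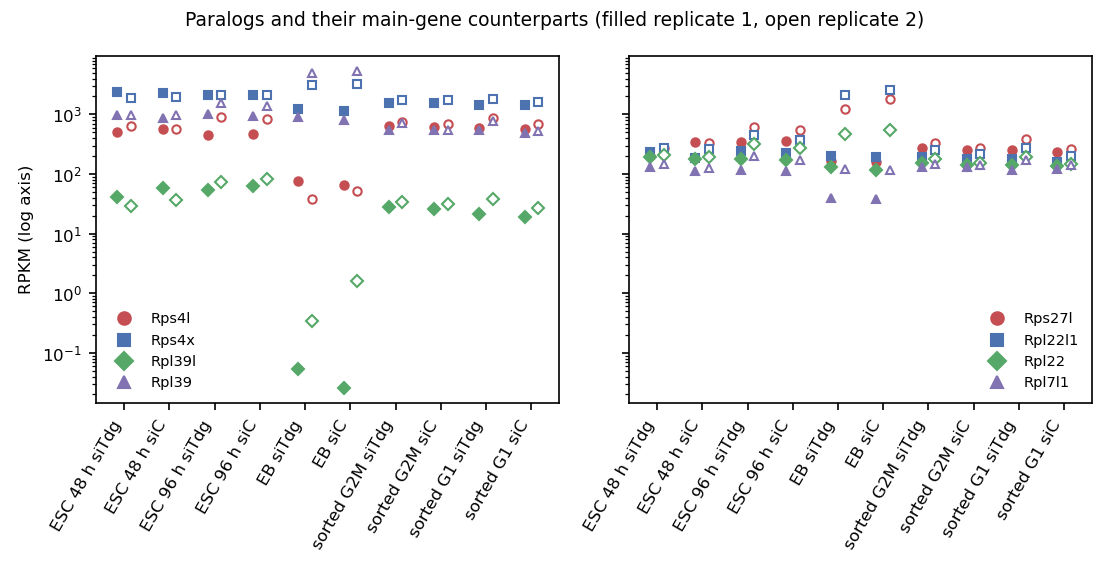
RPKM on a log axis of Rps4l, Rps4x, Rpl39l and Rpl39 (left) and of Rps27l, Rpl22l1, Rpl22 and Rpl7l1 (right) in each of the 20 libraries by group, filled symbols replicate 1, open symbols replicate 2. Rps4l and Rpl39l are lower in all 4 EB libraries than in any ESC library, and in EBs the open symbols of Rps27l, Rpl22l1 and Rpl22 lie far above the filled ones.

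RP genes differed widely between the 2 EB libraries of a group. Between replicate 2 and replicate 1 of siTdg EBs the difference of log2(RPKM + 0.5) had a median of 2.118 over the 78 genes, and in siC EBs of 2.438, replicate 2 being higher. Rps24 lay at the top in siC, with 1048 and 11027 RPKM in siTdg EBs and 929.6 and 14109 RPKM in siC EBs. Rpl4 of the large subunit barely differed, at 977 and 1084 RPKM in siTdg EBs and 835 and 851 RPKM in siC EBs. Rps2 had 1232 and 1652 RPKM in siTdg EBs and 1105 and 1496 RPKM in siC EBs. With Rpl4, Rpl28, Rps26 and Rps4l it was among the genes under 1 on the log2 scale in both groups. At the other end, 46 of the 78 genes were over 2 in both. The order of the genes was alike in siTdg and siC (Spearman 0.97 across genes, a description, since the same genes and the same replicate numbers were compared). Over the 78 genes of siC EBs the differences ran from -0.37 for Rps4l and 0.03 for Rpl4 to 3.92 for Rps24.

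Genes of 1 complex differed in this respect. Rpl5 of the 5S particle had 605 and 5138 RPKM in siTdg EBs and 561 and 4840 RPKM in siC EBs, a difference between replicate 2 and replicate 1 of 3.09 in siTdg and 3.11 in siC. Its partner Rpl11 had 1039 and 3337 RPKM in siTdg EBs and 882 and 3444 RPKM in siC EBs, with differences of 1.68 and 1.96. The stalk genes lay lower: Rplp0 had 1226 and 2853 RPKM in siTdg EBs and 1116 and 2797 RPKM in siC EBs, with differences of 1.22 in siTdg and 1.32 in siC. Rps6 had 708 and 3646 RPKM in siTdg EBs and 663 and 4268 RPKM in siC EBs. In each of these genes replicate 2 was the higher library in both groups, and siTdg and siC overlapped.

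**Figure D3:**
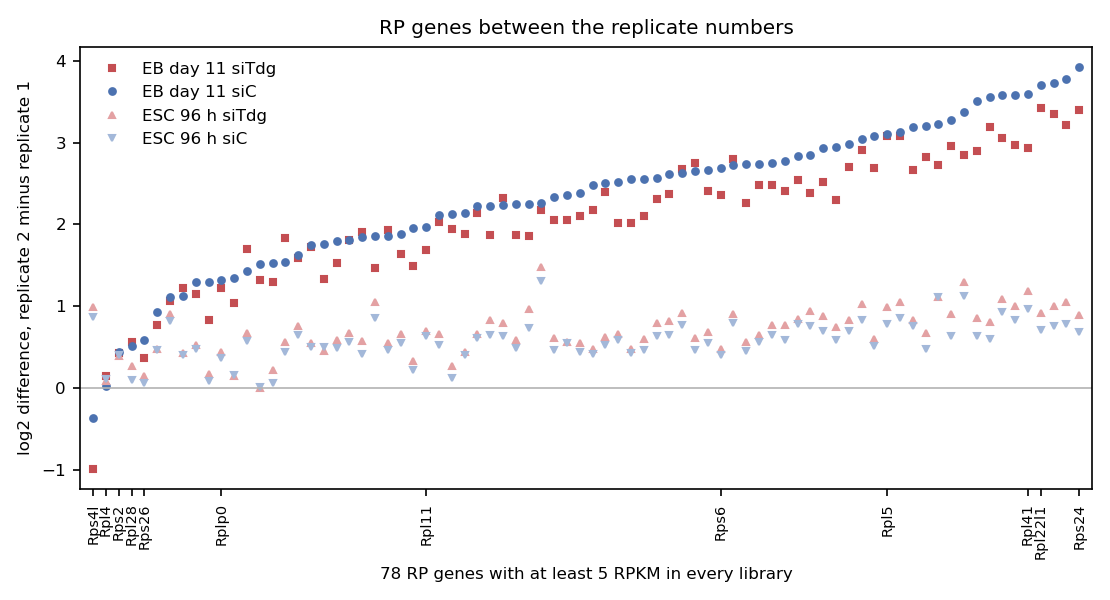
Difference of log2(RPKM + 0.5) between replicate 2 and replicate 1 (vertical axis) for each of the 78 RP genes with at least 5 RPKM in every library (horizontal axis, ordered by siC EBs, with the genes described in the text named), in siTdg and siC EBs (squares and circles) and in siTdg and siC ESCs at 96 h (triangles). The EB points climb from Rps4l below 0 to Rps24 above 3, while those at 96 h stay under 1.5.

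The 2 EB libraries of each group also differed in cell type markers. The summed RPKM of 6 embryonic erythroid genes was 12.1 and 736 in siTdg EBs and 5.57 and 321 in siC EBs, with all 6 higher in replicate 2 in both groups, while Gata1 and Klf1 stayed under 0.24 RPKM. The 7 cardiac muscle genes summed to 112 and 519 RPKM in siTdg EBs and 139 and 239 in siC EBs, with 2 of 7 higher in replicate 2 in both groups. The 7 yolk sac endoderm genes summed to 198 and 440.0 RPKM in siTdg EBs and 98.8 and 262 in siC EBs, with 4 of 7 higher in both. The 6 neural genes summed to 19.3 and 3.39 RPKM in siTdg EBs and 19.4 and 2.82 in siC EBs, with 3 of 6 higher in replicate 2 in both groups and 2 in neither, so the sums follow the abundant ones, Tubb3 and Nes, and Sox1 and Neurog2 were each listed at 0 in 1 library. The 8 pluripotency genes summed to 27.4 to 116 RPKM in EBs and 3550 to 7710 RPKM in ESCs, as the labels name them. The part of these cell types in the RP levels was not tested.

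Gene length moved with the same difference. RP genes are short, with a median of 729.5 bases as counted against 2815 for all genes tested in ESCs. In siTdg EBs all tested genes of over 500 and up to 1000 bases had a median difference between replicate 2 and replicate 1 of 1.506, and those over 4000 bases -0.607. In siC EBs these medians were 1.599 and -0.509. The 47 RP genes of over 500 and up to 1000 bases had 2.265 in siTdg and 2.556 in siC EBs, above other genes of that length. At 96 h they were close to them: 0.695 for RP genes against 0.681 for all such genes in siTdg, and 0.584 against 0.577 in siC. The 78 mitochondrial ribosomal protein genes, which serve another ribosome, differed by 0.790 in siTdg and 0.658 in siC ESCs at 96 h, and by 1.715 and 1.685 in siTdg and siC EBs. Within the RP genes length and difference were weakly related in EBs (Spearman -0.15 in siTdg and -0.23 in siC across 78 genes, a description). The part of length in the differences was not tested.

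**Figure D4:**
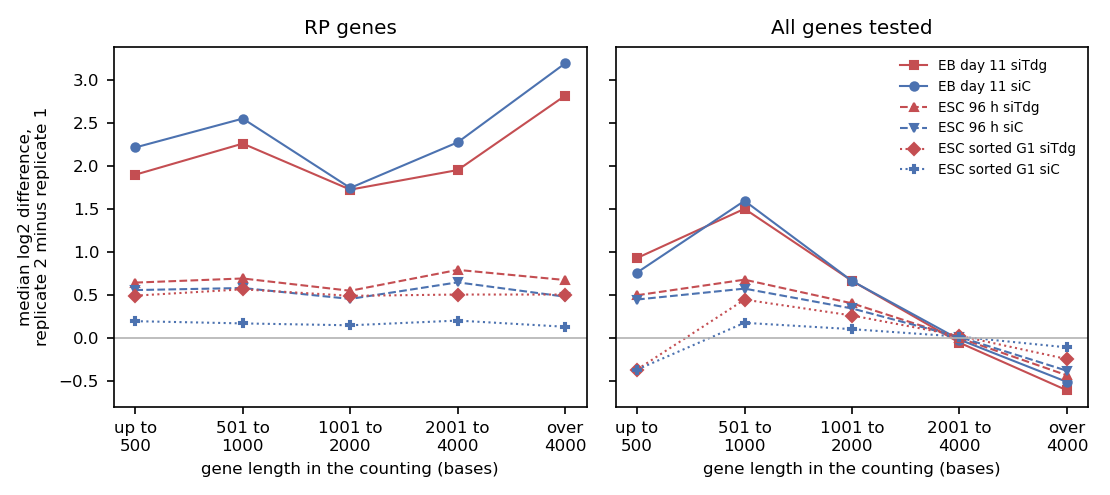
Median difference of log2(RPKM + 0.5) between replicate 2 and replicate 1 (vertical axis) by gene length class (horizontal axis, bases) for RP genes (left) and for all genes tested (right), in siTdg (red) and siC (blue) EBs, ESCs at 96 h and sorted G1 cells. All genes fall from the class of over 500 and up to 1000 bases to the class over 4000 bases in all 6 groups, while RP genes stay above 0 in every class; the last 2 RP classes hold 4 genes and 1 gene.

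The knockdown itself was checked on Tdg, which had 7.34 and 13.2 RPKM in siTdg against 46.0 and 43.4 in siC ESCs at 48 h. At 96 h the groups overlapped, with 28.2 and 40.3 against 35.8 and 46.0 RPKM, as in EBs, with 37.3 and 43.7 against 35.1 and 38.5 RPKM. In sorted cells Tdg was again low in siTdg, with 9.64 and 7.53 against 54.8 and 59.6 RPKM in G1 and 12.3 and 8.63 against 61.6 and 63.1 RPKM in G2M. Trp53, which encodes p53, had 183 and 148 RPKM in siTdg against 187 and 154 in siC ESCs at 48 h, and Mdm2 had 67.5 and 63.6 against 75.1 and 55.3, overlapping in both cases.

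At 48 h, when Tdg was low, no RP gene passed the test between siTdg and siC ESCs, but neither did Tdg, at -2.12 (SE 0.31, limma adjusted p = 1), so a count of 0 says little here. Across all genes limma, a linear model with a shared estimate of spread, called 0 of 83 RP genes tested at an adjusted p (Benjamini-Hochberg) under 0.05, and 0% of all genes. No RP gene had an unadjusted p under 0.05, against 54 of 12190 genes, and 0 RP genes were called under any other setting run. Above 0 lay 66 of 83 RP genes, against 5627 of 12190 genes. The median RP change was 0.063 on the log2(RPKM + 0.5) scale, siTdg over siC, against a median of -0.014 over all genes. Within replicate 1 the RP median was 0.009 and within replicate 2 0.119. In both replicate numbers 41 of 83 RP genes were higher in siTdg, against 3375 of 12190 genes. In replicate 2 all genes of over 500 and up to 1000 bases had a median of 0.104.

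Single RP genes stood apart at 48 h by more than the group. Rps27l, the paralog of Rps27 known in human cells as a p53 target, had 200.0 and 277 RPKM in siTdg against 341 and 328 RPKM in siC. Both siTdg libraries were below both siC libraries, and the change was -0.51 (SE 0.35), with a limma adjusted p = 1. Rpl39l had 41.2 and 28.8 RPKM in siTdg against 58.0 and 37.0 RPKM in siC, where the groups overlap, with an estimate of -0.42 (SE 0.31). Within replicates 1 and 2 its differences were -0.49 and -0.36. The third lowest was Rps2 at -0.16 (SE 0.28), a small subunit protein with 3116 and 2863 RPKM in siTdg and 3806 and 2910 RPKM in siC. Highest were Rpl36, a large subunit protein, at 0.25 (SE 0.38), Rpl38 at 0.20 (SE 0.31) and Rpl7l1 at 0.19 (SE 0.32). Rpl36 had 1172 and 1337 RPKM in siTdg and 1020 and 1079 RPKM in siC. Rpl38 had 1007 and 942 RPKM in siTdg and 859 and 840.5 RPKM in siC. Rpl7l1 had 130.4 and 146 RPKM in siTdg and 114 and 128 RPKM in siC. These 3 did not overlap between siTdg and siC. None of the 6 passed, each with a limma adjusted p = 1.

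At 96 h, when Tdg itself overlapped between the groups, Rps27l had 346 and 625 RPKM in siTdg ESCs, against 353 and 550.4 RPKM in siC, with overlap. The siTdg effect at 96 h less that at 48 h was 0.58 (SE 0.50) for Rps27l, the highest of the RP genes, ahead of Rpl39l at 0.26 (SE 0.44) and Rps2 at 0.16 (SE 0.40). Lowest were Rps26 at -0.10 (SE 0.29), Rps28 at -0.06 (SE 0.34) and Rpl7l1 at -0.06 (SE 0.45). By limma 0 of 83 RP genes passed for this difference, with 0% of all genes called and 0 RP genes at an unadjusted p under 0.05.

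For siTdg over siC at 96 h itself limma called 0 of 83 RP genes, with 0% of all genes called and 0 RP genes at an unadjusted p under 0.05. Above 0 lay 78 of 83 RP genes, against 6248 of 12190 genes. The median RP change was 0.067, against 0.004 over all genes. It was 0.014 within replicate 1 and 0.129 within replicate 2, where all genes of over 500 and up to 1000 bases had 0.142, and with quantile normalization of the libraries it was -0.001. Without siTdg replicate 2 it was -0.270 and without siC replicate 1 -0.208. Both left-out fits mix replicate numbers, so these values also carry the gap between replicate 2 and replicate 1. Rpl36 was highest at 0.21 (SE 0.38), with 1152 and 2247 RPKM in siTdg and 1077 and 1791 RPKM in siC, followed by Rpl22l1 at 0.18 (SE 0.38) and Rpl38 at 0.16 (SE 0.31). Rpl39l was lowest at -0.17 (SE 0.31), and Rpl4 was among the lowest at -0.01 (SE 0.20). Each of these had a limma adjusted p = 1. The siTdg and siC ranges of these genes overlapped.

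In day 11 EBs, where the libraries of a group lay far apart, no RP gene passed the test between siTdg and siC. Limma called 0 of 82 RP genes and 0% of all genes, and 0 RP genes had an unadjusted p under 0.05, against 20 of 13300 genes. Above 0 lay 34 of 82 RP genes, against 7235 of 13300 genes. The median RP change was -0.028, siTdg over siC, with a median SE of 1.589, against a median of 0.020 over all genes. Within replicate 1 RP genes had a median of 0.119 with 79 of 82 above 0, and within replicate 2 of -0.199 with 23 above 0. Leaving out siTdg replicate 1 gave 1.039 and leaving out siC replicate 2 gave 1.179. These left-out fits have no term for replicate number, so the wide gap between EB replicate numbers enters both values. Rpl7 was highest at 0.33 (SE 1.46), with 1147 and 3728 RPKM in siTdg and 1004 and 2697 RPKM in siC, then Rpl3 at 0.29 (SE 1.48) and Rpl4 at 0.29 (SE 0.99). Rpl4 is the gene that hardly differed between EB libraries, and both its siTdg values lay above both its siC values. Rpl39l was lowest at -0.62 (SE 0.78), then Rps12 at -0.28 (SE 2.17) and Rps27l at -0.27 (SE 1.75), and all 6 had a limma adjusted p = 1.

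In sorted siC cells nearly all RP genes lay slightly above 0 for G2M over G1, none of them past the limma test. The median change was 0.117, G2M over G1, against 0.021 over all genes, with 81 of 83 RP genes above 0. In both replicate numbers 79 of 83 were higher in G2M, against 5372 of 12462 genes, and the medians were 0.144 and 0.082. With quantile normalization, which gives all libraries the same distribution, the median was 0.004 with 44 of 83 above 0, so the size of the group's median depends on the scaling. Limma called 0 of 83 RP genes and 0.12% of all genes, and no RP gene had an unadjusted p under 0.05, against 1012 genes.

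The authors' deposited table of the same comparison called 9 of 79 RP genes with an adjusted p, all higher in G2M, at an adjusted p under 0.05. It called 8.48% of all genes, and 6.23% as higher in G2M. At an unadjusted p under 0.05 the authors' deposited table had 38 RP genes, where limma had none. The same count over all genes of the authors' deposited table was not taken. Rpl21, a large subunit protein, had 500.9 and 539.7 RPKM in G2M against 432 and 477 RPKM in G1, and 0.20 (SE 0.06, adjusted p = 0.00972) in the authors' deposited table. Rps28 had 863 and 946 RPKM in G2M against 721 and 848 in G1, and 0.21 (SE 0.06, adjusted p = 0.0183) in the authors' deposited table. Both G2M libraries lay above both G1 libraries for either gene, by narrow margins. Among the others were Rpl14, Rpl3, Rpl38, Rps25 and Rps29, with changes between 0.17 and 0.21 in the authors' deposited table. Rpl14 had 885 and 887 RPKM in G2M against 764 and 796 RPKM in G1. Rpl38 had 475 and 512 RPKM in G2M against 396 and 459 RPKM in G1. These 7 genes did not overlap between G2M and G1. Their limma estimates ran from 0.17 to 0.21, with adjusted p between 0.887 and 0.944.

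Among RP genes with at least 5 RPKM the highest limma changes in siC were those of Rpl39l at 0.34 (SE 0.28), Rpl38 at 0.21 (SE 0.20) and Rps28 at 0.21 (SE 0.18). Rpl39l had 26.2 and 31.2 RPKM in G2M and 19.1 and 26.4 RPKM in G1, with overlap. The lowest were Rps15a at 0.02 (SE 0.18), Rps12 at 0.04 (SE 0.22) and Rpl7l1 at 0.05 (SE 0.17). Rps15a had 112 and 121 RPKM in G2M and 109.7 and 120.3 RPKM in G1, and its change, like that of Rps12, was below 0 with quantile normalization.

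In sorted siTdg cells the 2 replicate numbers went opposite ways. Within replicate 1 the median RP change was 0.102, G2M over G1, with 78 of 83 above 0, and within replicate 2 it was -0.211 with 2 above 0. The overall median was -0.047, against 0.020 over all genes. It was 0.216 without replicate 2 of G1 and 0.067 without replicate 1 of G2M, in fits that mix replicate numbers. Limma called 0 of 83 RP genes and 0.169% of all genes, no RP gene had an unadjusted p under 0.05, and the authors' deposited table called 0 of 79 RP genes and 5.02% of all genes. Highest were Rpl39l at 0.11 (SE 0.28), Rpl38 at 0.05 (SE 0.20) and Rps26 at 0.04 (SE 0.15), of which Rpl38 and Rps26 were below 0 when libraries were centred on their median. Lowest were Rpl13a at -0.14 (SE 0.24), Rps3 at -0.14 (SE 0.24) and Rpl41 at -0.14 (SE 0.31). Rpl13a had 905 and 1138 RPKM in G2M and 891 and 1412 RPKM in G1, with Rpl41 at 1525 and 2110 RPKM in G2M and 1488 and 2623 RPKM in G1, so that replicate 2 in G1 was the highest siTdg library for both.

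The phase effect in siTdg less that in siC had a median of -0.161 over RP genes, with 2 of 83 above 0, against 0.016 over all genes. It was -0.036 within replicate 1 and -0.281 within replicate 2. In both replicate numbers 67 of 83 RP genes were below 0, against 2793 of 12462 genes, so the size differed more than the sign. Without replicate 2 of siTdg G1 the median was 0.112. That fit has no term for replicate number and sets both siTdg G2M libraries against replicate 1 of siTdg G1 alone. Limma called 0 of 83 RP genes and 0% of all genes, with 0 RP genes at an unadjusted p under 0.05. The lowest were Rpl41 at -0.25 (SE 0.44), Rps14 at -0.23 (SE 0.40) and Rpl32l at -0.23 (SE 0.33), and the highest Rps26 at -0.07 (SE 0.22), Rpl7l1 at -0.07 (SE 0.24) and Rpl23 at -0.09 (SE 0.21), of which Rps26 and Rpl23 were above 0 with quantile normalization.

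Replicate 2 of siTdg G1 also enters siTdg over siC in G1. The siTdg and siC libraries of sorted cells stand in separate tables, each scaled on its own, so siTdg over siC within a phase was also fitted on recovered reads scaled together. RP genes had a median of 0.273, siTdg over siC in G1, with 80 of 83 above 0, against 0.001 over all genes. Within replicate 1 the median was 0.091 and within replicate 2 0.453, and 78 of 83 genes were higher in siTdg in both, against 3728 of 12462. All genes of over 500 and up to 1000 bases had 0.057 and 0.336, and RP genes of that length 0.087 and 0.485. With quantile normalization the median was 0.056, and on reads scaled together (limma-voom with TMM) 0.276, where 0 RP genes were called too. Without siTdg G1 replicate 2 it was -0.003. That fit sets siTdg replicate 1 against both siC libraries, so it also carries the gap between replicate numbers.

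Limma called 0 of 83 RP genes for siTdg over siC in G1 and 0.00802% of all genes, which was Tdg alone, and 0 RP genes had an unadjusted p under 0.05, against 428 genes. Rps21, a small subunit protein, had 475 and 669 RPKM in siTdg against 385 and 446 RPKM in siC. Its estimate was 0.44 (SE 0.19), with an unadjusted p = 0.0531 and a limma adjusted p = 0.916, and its groups did not overlap. Rpl36 had 813 and 1233 RPKM in siTdg against 707 and 788 RPKM in siC with an estimate of 0.42 (SE 0.21), also without overlap. Rpl13a had an estimate of 0.41 (SE 0.24). The lowest were Rps4x at 0.10 (SE 0.18), Rpl7l1 at 0.12 (SE 0.17) and Rpl29 at 0.12 (SE 0.12), Rps4x being below 0 with quantile normalization.

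In G2M the RP median was 0.103, siTdg over siC, with 81 of 83 above 0, against 0.012 over all genes. It was 0.051 within replicate 1 and 0.169 within replicate 2, 77 of 83 RP genes being higher in siTdg in both, against 4255 of 12462 genes. Limma called 0 of 83 RP genes and 0.00802% of all genes, again Tdg alone, with 0 RP genes at an unadjusted p under 0.05. With quantile normalization the median was 0.033, and on reads scaled together 0.088 with 0 RP genes called, and without siTdg replicate 2 it was -0.008. Rps21 was again highest at 0.26 (SE 0.19), with 494 and 595 RPKM in siTdg against 449.9 and 453 RPKM in siC, then Rpl36 at 0.22 (SE 0.21) and Rplp2 at 0.20 (SE 0.16). The lowest were Rps4x at 0.005 (SE 0.18), Rpl29 at 0.01 (SE 0.12) and Rpl4 at 0.03 (SE 0.15), and all 3 were below 0 with quantile normalization. The G1 and G2M comparisons share no library.

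**Figure D5:**
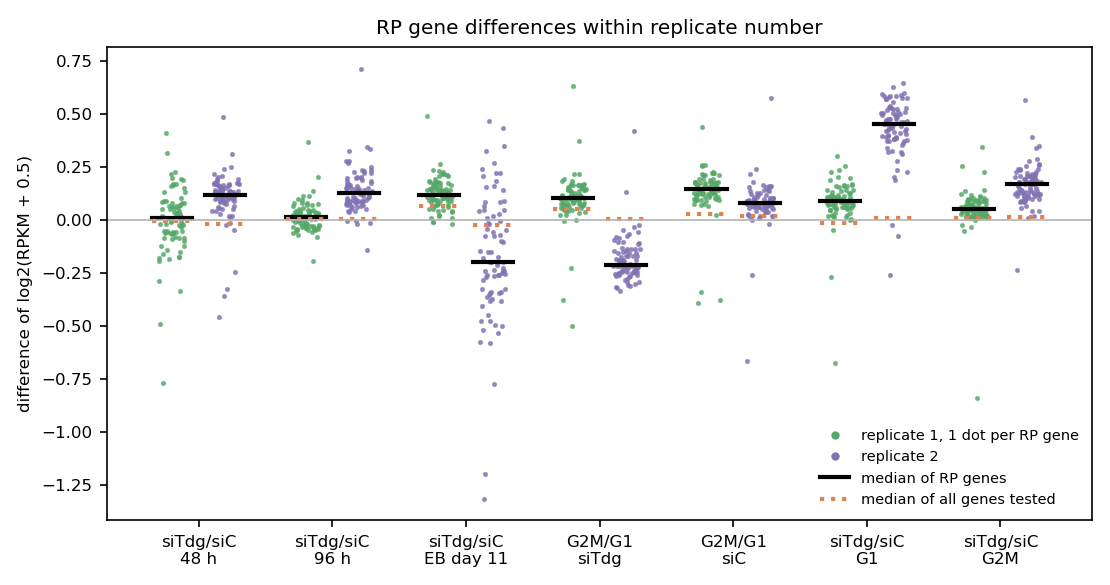
Difference of log2(RPKM + 0.5) of each tested RP gene within replicate 1 (green) and replicate 2 (purple) for 7 comparisons, with the RP median (black bar) and the median of all genes tested (orange dots). RP dots form tight clouds whose place shifts with the replicate number, most in siTdg over siC in G1 and in EBs and in G2M over G1 of siTdg cells.

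The authors' deposited tables gave 0 called RP genes for siTdg over siC at 48 h of 79, at 96 h of 79 and in EBs of 79, with 1.35%, 0.144% and 0.0745% of all genes called. At an unadjusted p under 0.05 the authors' deposited tables had 10 RP genes at 48 h, 1 at 96 h and 1 in EBs. They had 0 for G2M over G1 in siTdg and 2 for SG2M over G1 at 0 h. The same counts over all genes were not taken, so these do not show if RP genes stood out. Nearest to the adjusted threshold at 48 h were Rpl36 at 0.26 (SE 0.08, adjusted p = 0.0712) and Rpl39l at -0.43 (SE 0.14, adjusted p = 0.0877) in the authors' deposited table. For SG2M over G1 at 0 h, whose libraries were not analysed here, the authors' deposited table called 0 of 81 RP genes and 11.6% of all genes, with a median RP change of 0.073 and 74 of 83 above 0. The signs of the 48 h, 96 h and 0 h tables were turned here so that siTdg and SG2M stand on top.

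The 2 subunits gave like values in all comparisons. For siTdg over siC at 48 h the median was 0.061 over 50 large subunit genes and 0.067 over 33 small subunit genes, and at 96 h 0.074 and 0.066. In G1 it was 0.269 for the large and 0.290 for the small subunit, and in G2M 0.103 and 0.113. For G2M over G1 in siTdg cells the large subunit had -0.042 and the small -0.058, and in siC cells 0.118 and 0.113. In EBs the medians were -0.020 over 49 large and -0.053 over 33 small subunit genes.

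Among the paralogs in sorted cells, Rps27l had 269 and 325 RPKM in siTdg G2M and 253 and 389 RPKM in siTdg G1. In siC it had 253 and 278 RPKM in G2M and 233 and 259.6 RPKM in G1. Its change for siTdg over siC was 0.35 (SE 0.21) in G1 and 0.16 (SE 0.21) in G2M, of the other sign than the -0.51 (SE 0.35) at 48 h, and none of these passed the limma test (adjusted p = 0.916 in G1). Rpl22l1 had 178 and 273 RPKM in siTdg G1 against 162 and 199 RPKM in siC G1, with overlap and an estimate of 0.29 (SE 0.25). Rpl39l had 21.4 and 37.8 RPKM in siTdg G1 against 19.1 and 26.4 RPKM in siC G1, also with overlap, and an estimate of 0.33 (SE 0.28). Rps4l had 0.20 (SE 0.21) in G1 and 0.06 (SE 0.21) in G2M, within 1 SE of 0. Rpl3l, near 1 RPKM or below, had -0.32 (SE 0.17) for G2M over G1 in siC and -0.12 (SE 0.17) in siTdg cells.

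Of the stalk in sorted cells, Rplp2 had 1221 and 1518 RPKM in siTdg G1 against 1037 and 1141 RPKM in siC G1. Both siTdg libraries lay above both siC libraries, and the change was 0.32 (SE 0.16), with a limma adjusted p = 0.916. The estimates were 0.27 (SE 0.22) for Rplp0 and 0.24 (SE 0.22) for Rplp1 in G1, and their groups overlapped. Of the 5S particle, Rpl5 had 0.23 (SE 0.24) and Rpl11 0.28 (SE 0.18) in G1. In G2M the changes were 0.07 (SE 0.24) for Rpl5 and 0.11 (SE 0.18) for Rpl11, beside RP medians of 0.273 in G1 and 0.103 in G2M.

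Genes that serve the same machinery were set beside the RP genes. Mitochondrial ribosomal protein genes had medians of 0.076 at 48 h, 0.110 at 96 h, 0.032 in G2M and 0.150 in G1 for siTdg over siC, the last below the 0.273 of RP genes. Translation factors with TOP messages, such as Eef1a1 and Eef2, had -0.011, 0.046, 0.033 and 0.102 in the same order, over 17 genes. Ribosome assembly factors and nucleolar proteins had -0.015 and 0.059 over 58 genes, and -0.024 and 0.016 over 59. For G2M over G1 in siC cells translation factors had a median of 0.064 and assembly factors 0.069, below the 0.117 of RP genes. Mitochondrial ribosomal protein genes had 0.097, the RNA polymerase I list 0.096, the mTORC1 list 0.096 and the Myc family list 0.112, nearer to RP genes. The 8 pluripotency genes had 0.151, above RP genes, so a small rise in G2M was not particular to RP genes. By limma 0 genes of these lists, of the RNA polymerase I list, of the mTORC1 list and of the Myc family list were called in any of the 9 comparisons. At 48 h Rpl5 and Rpl11 had a median of 0.107 and the 13 RP genes reported elsewhere to bind Mdm2 0.074, against 0.063 for all RP genes.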

How the data were processed

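Strand-specific total RNA depleted of ribosomal RNA was sequenced in the 20 libraries used, 2 in each of 10 groups, of 47 samples in the series. The submitters' processing notes name TopHat, Bowtie, DESeq2, DiffBind, mm9 and dm3, without roles. The authors deposited RPKM values per gene, scaled within each table per the file headers and values, so levels across tables are descriptions. Tables of comparisons, deposited by the authors, hold the mean normalised count (treated as a score, since such means need not be whole, and not printed here), log2 fold change, its standard error, p-value and adjusted p-value of each gene. Their sign was turned for 0 h, 48 h and 96 h. Whole reads were recovered from the RPKM by the steps of low values: 100% of positive values were within 0.01 of a whole read. This gave 20818174 to 41433232 reads per library, and the precision of a level is set by the 2 libraries rather than by this depth. The 4 RPKM columns of 0 h matched no sample and were not used, and sorted day 9 embryoid bodies and peak lists were not analysed here.

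Comparisons were fitted by limma 3.58.1 under R 4.3.3, taking log2(RPKM + 0.5) of the genes whose mean reached 0.5 RPKM, with a trend in the spread, two-sided, and p-values adjusted by Benjamini-Hochberg over all genes tested. The 8 unsorted ESC libraries shared 1 fit, as did the 8 sorted ones, and the 4 EB libraries had their own. Replicate number was not a term, but differences within each number are given. With 1 library left out, a median therefore also carries part of the gap between replicate numbers. Scripts were tested on simulated data. Of the 84 genes, 83 passed the filter in ESCs and in sorted cells and 82 in EBs. Named were genes called by limma or in the authors' tables, the 3 highest and 3 lowest changes among genes averaging 5 RPKM or more, the paralogs, stalk and 5S genes, the highest and lowest levels, and Rps6, Rps27a and Rpsa, with Tdg, Trp53 and Mdm2 as a check. Genes that the rule names but that were left out are not reported here. Rpl4, Rps2 and Rps24 in EBs were chosen after their values were seen. Start windows and pseudogene symbols come from RefSeq for GRCm38.p6. The genes, lists and tests were chosen with earlier results of these data known. Alternatives were another pseudocount, filter, scaling, trend or sample set, the replicate block, and each library left out.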

Additional observations from a re-analysis of the deposited data

Results flagged for a closer look

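For 3 RP genes both replicate numbers had one sign in one setting and the other sign in the other setting, on the log2(RPKM + 0.5) scale. Rps15a, of the small subunit, differed between G2M and G1 by -0.007 in replicate 1 and -0.244 in replicate 2 of siTdg cells, and by 0.025 and 0.008 in replicates 1 and 2 of siC cells. The limma test of the difference between siTdg and siC gave -0.14 (SE 0.26), unadjusted p = 0.598 and adjusted p = 1 for Rps15a. Rpl39, of the large subunit, differed between G2M and G1 by -0.002 and -0.112 in siTdg cells and by 0.177 and 0.068 in siC cells, and the limma test gave -0.18 (SE 0.28) with an adjusted p = 1. Rps27, listed near 0, differed between siTdg and siC by -0.676 and -0.023 in G1 and by 0.345 and 0.568 in G2M. The same limma test gave 0.81 (SE 0.53) with an adjusted p = 1 for Rps27. By the overall estimates, 18 of 83 RP genes lay above 0 for G2M over G1 in siTdg and 81 of 83 in siC. Groups of 2 libraries were not examined for outlying samples.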

How the results depend on the processing

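No setting called an RP gene. Apart from left-out libraries, 83 medians over RP genes moved by no more than the spread between replicate numbers and 4 by more. This count is a weak check, since the trend and the replicate block cannot move a median here. The spread is also wide where replicate numbers differ. For siTdg over siC in G1 a fall from 0.273 to 0.056 with quantile normalization did not exceed it. For the siTdg effect at 96 h minus that at 48 h, 0.007 as reported, the median was -0.011 with libraries centred on their median, -0.032 with quantile normalization and -0.007 with limma-voom on recovered reads. For G2M over G1 in siC it was 0.004 with quantile normalization. Of the changes of named RP genes 555 moved by no more than their spread and 36 by more, with the same limits.

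With 1 library left out, the lone sample being assumed to vary like the others, the median ran from 0.009 to 0.112 at 48 h, -0.27 to 0.436 at 96 h, -0.321 to 0.349 for their difference, -1.203 to 1.179 in EBs, -0.303 to 0.216 for G2M over G1 in siTdg, 0.027 to 0.202 in siC, -0.003 to 0.541 for siTdg over siC in G1, -0.008 to 0.216 in G2M and -0.422 to 0.112 for the phase difference. These fits have no term for replicate number, so the ranges also carry the gap between replicate numbers. Counts over all genes ran from 0 to 1 in EBs, 0 to 8 for G2M over G1 in siTdg, 0 to 0 in siC, 0 to 0 for siTdg over siC in G1 and 0 to 1 in G2M.

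Without a filter on low values 4 genes of all kinds were called at 96 h, 4 for the difference between 96 h and 48 h, 6 for siTdg over siC in G1, 4 in G2M and 7 for the phase difference. With the 4 libraries of a comparison alone the counts were 0 for G2M over G1 in siTdg, 3 in siC, 0 for siTdg over siC in G1 and 0 in G2M. Limma-voom on recovered reads called 15 genes for G2M over G1 in siTdg, 16 in siC, 1 each for siTdg over siC in G1 and G2M and 0 in the other comparisons.

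Deviations from the group means were correlated between libraries of one replicate number (0.592 to 0.951 across genes), but there are only 2 numbers and the labels do not say what they share. The authors' deposited comparisons are labelled paired, without saying what was paired. With a replicate block 150 genes were called in EBs, 985 for G2M over G1 in siTdg, 614 in siC, 2 for siTdg over siC in G1 and 3 in G2M, against 0, 21, 15, 1 and 1 without it. The block called 0 RP genes. With both replicate numbers in every group it cannot change a median, so the medians are not checked by it. Causes of these shifts were not tested.

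With 2 libraries a group, the median SE of an RP gene was 0.211 in sorted cells, 0.309 in unsorted ESCs and 1.589 in EBs on the log2 scale, from a fit without replicate number. In the authors' deposited tables, which are labelled paired, the median SE of an RP gene was 0.058 for G2M over G1 in siC and 0.156 in EBs.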
